A study of Mus musculus with 12 samples.

Results

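Hematopoietic stem cells from wild-type mice given Romiplostim were compared with those from untreated wild-type mice, with 3 RNA-seq libraries in each group. Romiplostim is a drug that mimics the hormone thrombopoietin. The wild-type mice were C57BL/6 with both thrombopoietin alleles intact (Thpo+/+), and the treated ones had received 100 µg/kg per day intravenously for 10 days. The labels call the controls untreated, while the treatment protocol names PBS for the control. These 6 libraries are part of a series of 12, whose other 6 came from Thpo-/- mice of the same strain, 3 untreated and 3 given the same Romiplostim course. All cells were sorted by flow cytometry as stem cells. The labels give neither age nor gate, and nothing in them says that replicates were separate animals, so p-values measure only the spread between these samples. Each group of 3 was sequenced as 1 run, so run and group cannot be told apart. Of 35275 genes in the table, the 11938 with at least 1 FPKM (fragments per kilobase of transcript, scaled to the total mapped) in at least 3 of the 6 wild-type libraries were tested.

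Thrombopoietin is made mainly by the liver and reaches stem cells in the bone marrow through the blood. Its signal runs through the kinase JAK2, the transcription factor STAT5 and the PI3-kinase and MAP-kinase routes, and STAT5 in turn induces inhibitors of the SOCS family that damp the signal. In the marrow the pathway drives megakaryocyte and platelet formation, and it is also required to keep stem cells in number and at rest.

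The stem cell markers were present in all 6 libraries. Procr ranged from 81.1 to 151 FPKM, Slamf1 from 23.3 to 37.4 FPKM, Ly6a from 542 to 860 FPKM and Esam from 273 to 310 FPKM. Thpo itself was listed at 0 in 4 of the 6 libraries and at no more than 0.0426 FPKM in the others, near the 0.0325 to 0.0402 FPKM that 3 fragments would give. The values imply a depth of 28.4 to 35.1 M (mega) fragments for each wild-type library. Pearson's r of log values over tested genes was 0.976 to 0.989 between untreated libraries, 0.99 to 0.995 between treated ones and 0.967 to 0.982 across the groups. Replicate 1 of both groups stood apart on the second principal component, which held 30.5% of the variance. Y-linked genes were near 0 in untreated replicate 2 and Romiplostim replicate 1 and expressed in the other 4 wild-type libraries. In knockout they were near 0 in all 3 treated libraries and expressed in all 3 untreated ones. Every knockout effect and interaction given below is therefore confounded with sex.

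Romiplostim changed 313 of the 11938 tested genes in wild-type cells (2.62%), of which 141 were higher (1.18% of tested genes) and 172 lower (1.44%) by limma with Benjamini-Hochberg adjusted p under 0.05. A log2 difference of at least 1 was reached by 76 of those higher and 92 of those lower. In all 313 the 2 groups did not overlap, so a lack of overlap in a gene that passed is no further support. Differences are on the log2(FPKM + 1) scale, which understates those of low genes. Same-numbered wild-type libraries deviated together, a pairing that was read from the same expression values and that the labels do not state. A fit of the 6 libraries with the replicate number as a block called 608 genes higher (5.09%) and 788 lower (6.6%), among them 311 of the 313. This fit, used for all block results below, also leaves out the knockout libraries. The 6 libraries without the block gave 276 higher and 335 lower, and the block over all 12 libraries gave 303 genes. The larger counts therefore cannot be credited to the block alone. The main count of 313 fell to between 116 and 236 when 1 wild-type library was left out. Without replicate 1 of the treated knockout group, which shares the estimate of spread, it was 541. Quantile normalization of the log values gave 272 higher and 216 lower, and a filter at 5 FPKM gave 87 higher and 54 lower.

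**Figure D1:**
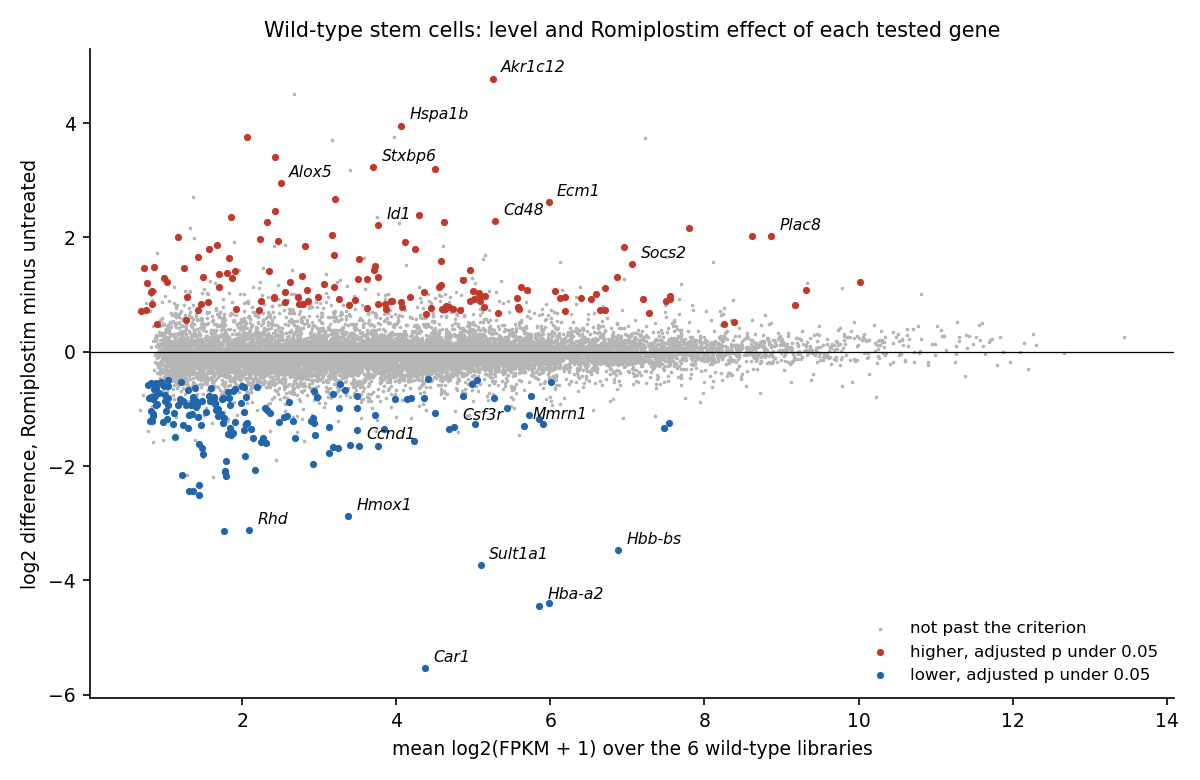
Each point is a tested gene, with its mean log2(FPKM + 1) over the 6 wild-type libraries on the x axis and its log2 difference, Romiplostim minus untreated, on the y axis. Coloured points are the 141 genes higher and the 172 lower at adjusted p under 0.05, with Akr1c12 at the top (4.78) and Car1 at the bottom (-5.54).

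Among signalling genes downstream of thrombopoietin, Pik3r1 fell. Pik3r1, the regulatory subunit of PI3-kinase, measured 50.3, 75.8 and 57.4 FPKM untreated and 26.7, 31.3 and 31.7 FPKM treated. Its groups did not overlap, with a log2 difference of -0.99 ± 0.18 (limma adjusted p = 0.0116, and 0.058 without Romiplostim replicate 1).

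The median log2 difference over the 20 signalling genes tested was -0.03, beside -0.04 over all tested genes. Jak2, the kinase that starts the cascade, measured 7.34, 10.2 and 8.6 FPKM untreated and 7.04, 7.61 and 8.28 FPKM treated, and its groups overlapped. Stat5a and Stat5b had log2 differences of 0.13 ± 0.17 and 0.21 ± 0.23. The adaptor Grb2 (0.40 ± 0.12) and the kinase Fyn (0.62 ± 0.22) did not pass, but did with the replicate block (limma adjusted p = 0.0344 and 0.0119). Of 25 alternatives, the block included, Grb2 passed under 3 and Fyn under 4, with the lowest limma adjusted p from library weights (0.00262 and 0.00351).

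Among inhibitors that damp cytokine signals, Socs2 rose and Cish did not. Socs2, a STAT5-induced member of the SOCS family, measured 106, 60.2 and 72.5 FPKM untreated and 195, 245 and 244 FPKM treated. Every treated library was above every untreated one, at a log2 difference of 1.54 ± 0.30 (limma adjusted p = 0.017). That p was above 0.05 without untreated replicate 2 or 3 or Romiplostim replicate 2 or 3, with a highest value of 0.0783. Cish, another STAT5-induced member, measured 39.9, 58.3 and 28.9 FPKM untreated and 25.4, 36.2 and 36.4 FPKM treated. The 2 groups of Cish values overlapped, at a log2 difference of -0.33 ± 0.31 (limma adjusted p = 0.741). In knockout cells given the same drug course the differences were 2.06 for Cish and 3.51 for Socs2. The interaction passed for both (limma interaction adjusted p = 0.00683 for Cish and 0.0123 for Socs2), but in knockout sex and drug cannot be told apart.

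The other 15 feedback genes tested did not pass. Socs3 measured 78.8, 8.57 and 16.5 FPKM untreated and 9.99, 11.6 and 8.04 FPKM treated, with untreated replicate 1 far above the other 5 libraries. The log2 difference of Socs1 was -0.00 ± 0.30. Dusp6, a phosphatase of ERK (-0.82 ± 0.34), and Spred2, an inhibitor of the Ras route (-0.69 ± 0.22), were lower with the replicate block (limma adjusted p = 0.0212 and 0.0143). Library weights also gave a call for Spred2 (limma adjusted p = 0.0027). The list's median was -0.15.

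The start of Cish is shown because it carries the letters STAT5 binds, TTCNNNGAA, in a gene whose 3 treated and 3 untreated wild-type values overlapped. The window runs from 250 bases before to 50 after the RefSeq start (GRCm38.p6, plus strand, chr9:107296409-107296708, 5′ to 3′), with the matches in capitals.
Cish: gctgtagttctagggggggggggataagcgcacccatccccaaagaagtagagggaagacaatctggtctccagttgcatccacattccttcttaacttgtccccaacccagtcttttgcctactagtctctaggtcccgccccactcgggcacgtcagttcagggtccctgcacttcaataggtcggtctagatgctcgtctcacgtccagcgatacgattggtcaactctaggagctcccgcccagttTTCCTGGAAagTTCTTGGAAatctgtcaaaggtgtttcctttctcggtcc
It holds 2 matches, 1 at the start and 1 beginning 11 bases after it. The palindrome, searched on both strands, is in 8.3% of the 32851 RefSeq windows of 300 bases, in 2 of 14 feedback genes with a window and in 3 of 14 STAT5 target genes with one. A match says only that these letters are there.

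**Figure D2:**
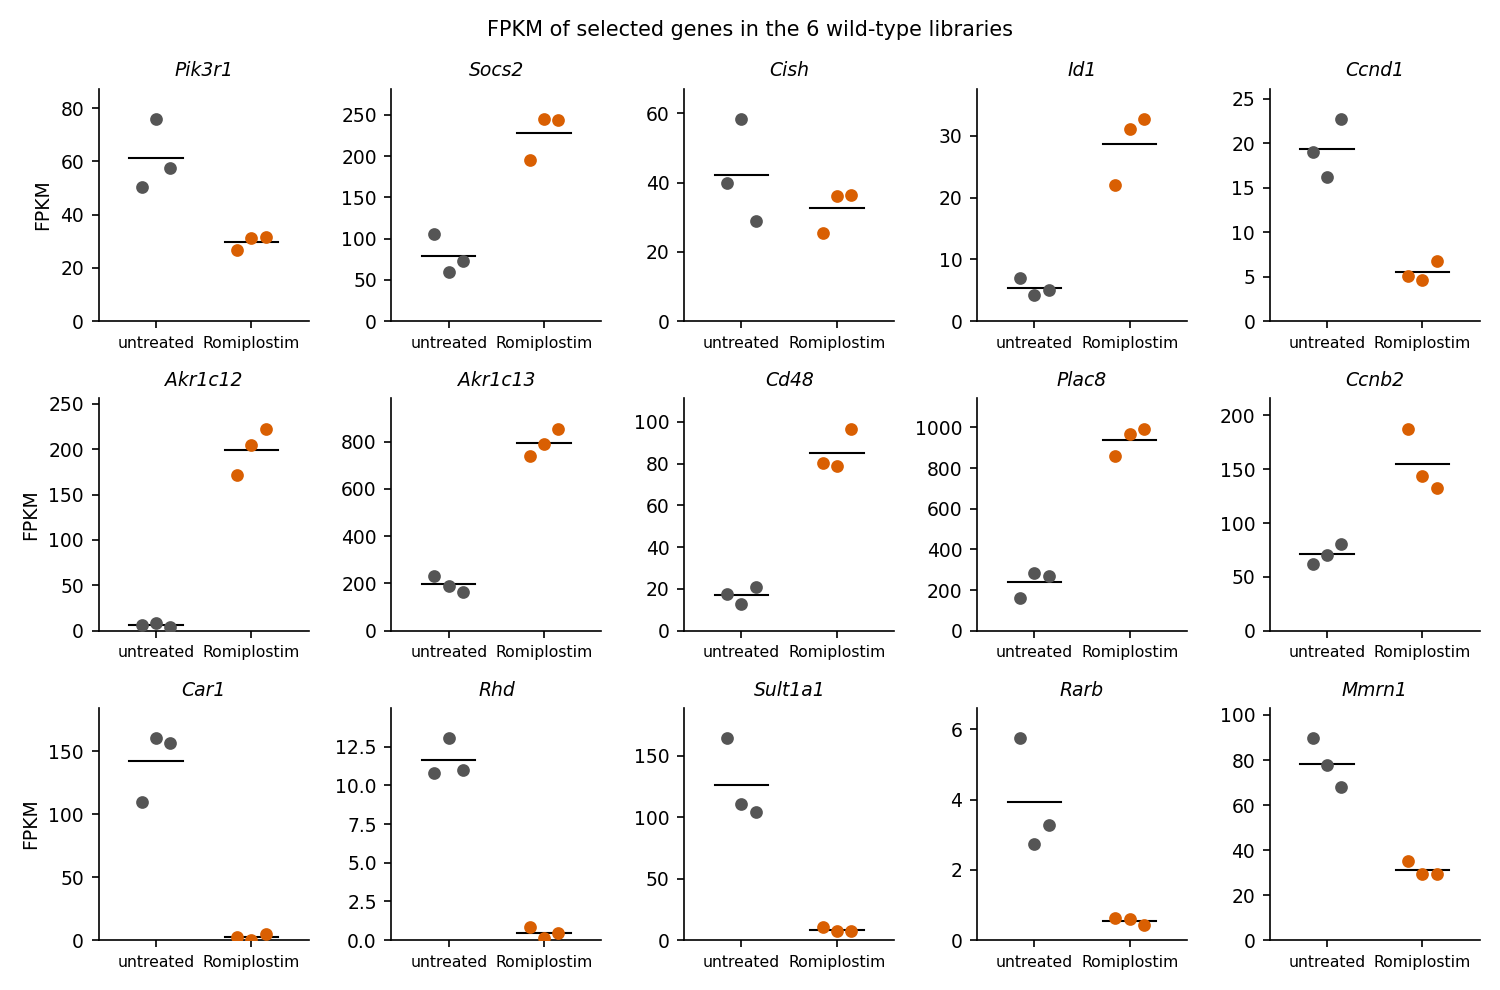
FPKM of 15 genes in the 6 wild-type libraries, on linear axes from 0, with 1 point per library and the group mean as a line. Pik3r1 drops from 50.3 or more to 31.7 or less, Socs2 rises to 195 or more, and the points of Cish overlap.

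Of 20 listed STAT5 target genes, 2 rose and 1 fell, Socs2 among the former, beside 1.18% of all tested genes higher and 1.44% lower. Id1, an inhibitor of basic helix-loop-helix factors, measured 6.92, 4.21 and 5.02 FPKM untreated and 22.0, 31.2 and 32.7 FPKM treated. Its log2 difference was 2.22 ± 0.27 (limma adjusted p = 0.00103), and in knockout cells it was 1.95 (interaction adjusted p = 0.667). Ccnd1, which encodes cyclin D1 of the G1 phase, measured 19, 16.2 and 22.7 FPKM untreated and 5.12, 4.61 and 6.81 FPKM treated. It fell by 1.64 ± 0.24 on the log2 scale (limma adjusted p = 0.00363), with no overlap between the groups. The knockout difference for Ccnd1 was -0.12 (interaction adjusted p = 0.0152). Bcl2, an inhibitor of apoptosis, had a log2 difference of -0.76 ± 0.19 (limma adjusted p = 0.0566, and 0.00893 with the replicate block).

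Many genes of mitosis rose, while no gene of DNA replication passed. Of 33 mitosis genes tested, 16 were higher and none lower, beside 1.18% and 1.44% of all tested genes. All 33 had a positive log2 difference (0.23 to 1.31) and their median was 0.75. The groups did not overlap for 29 of the 33, where 10.3% of all tested genes had every treated library above every untreated one and 16.2% every treated library below. Of 30 DNA replication genes, none passed in either direction and the median was 0.00 (range -0.32 to 0.51). At an unadjusted limma p under 0.05 1 of these 30 passed, and 1 did with the replicate block. With the block in the 6 wild-type libraries, 26 mitosis genes were higher and none lower, beside 5.09% and 6.6% of all tested genes. These 6 libraries without a block gave 17 higher, and the block over all 12 libraries gave 11. In bulk libraries such as these, more cells of a type and more RNA per cell cannot be told apart, nor can fewer cells and less RNA.

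The 4 mitosis genes with the smallest p were Ccnb2, Aurka, Cenpa and Plk1. Ccnb2, which encodes cyclin B2, measured 62.1, 69.8 and 80.6 FPKM untreated and 188, 144 and 133 FPKM treated (log2 difference 1.11 ± 0.17, limma adjusted p = 0.00397). Aurka, the kinase of the spindle poles, measured 32.7, 31.9 and 40.4 FPKM untreated and 92.5, 64.7 and 69.0 FPKM treated (1.08 ± 0.17, limma adjusted p = 0.00433). Plk1, a kinase of mitotic entry and exit, measured 18.9, 19.3 and 25.4 FPKM untreated and 51.9, 42.5 and 41.1 FPKM treated (1.06 ± 0.17, limma adjusted p = 0.00681). Cenpa, the histone H3 variant of centromeres, measured 54.9, 84.1 and 83.6 FPKM untreated and 204, 184 and 160 FPKM treated (1.31 ± 0.20, limma adjusted p = 0.00433). For all 4, every treated library was above every untreated one.

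Mki67, the antigen commonly used to mark cycling cells, overlapped between the groups, with 3.92, 5.75 and 9.38 FPKM untreated and 7.69, 8.33 and 8.74 FPKM treated (0.40 ± 0.29, limma adjusted p = 0.614). Kif2c, a kinesin of the centromere named after its values were seen, measured 16.2, 18.3 and 19.4 FPKM untreated and 57.6, 48.4 and 45.6 FPKM treated (1.44 ± 0.16, limma adjusted p = 0.000624). The number of mitosis genes higher was 6, 5 and 18 without untreated replicates 1, 2 and 3, and 4, 7 and 6 without Romiplostim replicates 1, 2 and 3. It was 10 with no filter on low values.

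Starts of these 4 genes are printed because the members of the list that moved together share letters there. The windows are again 250 bases before to 50 after the RefSeq start, 5′ to 3′ on the gene's strand (GRCm38.p6): Ccnb2 at chr9:70421505-70421804 (minus), Plk1 at chr7:122159185-122159484 (plus), Aurka at chr2:172370521-172370820 (minus) and Cenpa at chr5:30666636-30666935 (plus). Capitals mark CCAAT, the letters the factor NF-Y binds, and TTTGAA, letters of the cell cycle genes homology region known from late cell cycle promoters, or their reverse complements.
Ccnb2: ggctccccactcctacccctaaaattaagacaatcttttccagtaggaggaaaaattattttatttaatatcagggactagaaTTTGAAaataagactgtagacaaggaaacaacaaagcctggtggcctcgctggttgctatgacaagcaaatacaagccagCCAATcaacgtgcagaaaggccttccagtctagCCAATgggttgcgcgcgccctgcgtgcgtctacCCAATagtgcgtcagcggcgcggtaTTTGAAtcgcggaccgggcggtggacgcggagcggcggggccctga
Plk1: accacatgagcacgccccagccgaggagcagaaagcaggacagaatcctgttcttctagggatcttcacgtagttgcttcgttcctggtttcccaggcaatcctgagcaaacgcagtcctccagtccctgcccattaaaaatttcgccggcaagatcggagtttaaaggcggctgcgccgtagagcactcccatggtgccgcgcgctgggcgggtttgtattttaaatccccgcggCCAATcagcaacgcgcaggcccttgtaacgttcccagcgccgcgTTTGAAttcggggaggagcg
Aurka: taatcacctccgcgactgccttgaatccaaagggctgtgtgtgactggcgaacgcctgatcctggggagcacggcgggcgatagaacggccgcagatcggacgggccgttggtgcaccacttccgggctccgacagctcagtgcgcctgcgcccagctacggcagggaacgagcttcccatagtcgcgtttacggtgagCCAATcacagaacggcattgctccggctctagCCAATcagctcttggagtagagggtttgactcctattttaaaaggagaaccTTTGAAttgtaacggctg
Cenpa: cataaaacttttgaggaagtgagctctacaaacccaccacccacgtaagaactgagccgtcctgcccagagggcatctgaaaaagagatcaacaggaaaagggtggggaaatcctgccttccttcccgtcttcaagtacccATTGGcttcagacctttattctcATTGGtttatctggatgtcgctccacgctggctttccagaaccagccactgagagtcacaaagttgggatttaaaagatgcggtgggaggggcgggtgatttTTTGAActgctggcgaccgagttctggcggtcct
In these 4 windows a TTTGAA began 4 to 32 bases after the start, and the nearest CCAAT lay 14 to 86 bases before it.

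Both motifs, chosen after the values were seen and searched on both strands, stood together in 17 of the 27 mitosis genes with a window (63.0%). The share was 9 of 12 among mitosis genes that rose (75.0%) and 8 of 15 among those that did not pass (53.3%). Both were in 6.02% of the 9191 tested genes with a window and in 3 of 25 DNA replication genes (12%). CCAAT alone was nearly as common at DNA replication genes (64.0%) as at mitosis genes (74.1%), while TTTGAA was in 12% and 74.1% respectively.

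In knockout cells 12 of the 33 mitosis genes fell and none rose, with a median log2 difference of -0.48, where 16.1% of tested genes were lower and 11.6% higher. Over this list the mean log2(FPKM + 1) was 6.16, 6.36 and 5.75 in untreated knockout and 4.48, 4.70 and 5.06 in untreated wild type. With Romiplostim it was 5.82, 5.61 and 5.63 in knockout and 5.63, 5.45 and 5.51 in wild type, so the genotypes started apart. The interaction passed for 22 of the 33 mitosis genes, all with the smaller value in knockout, where 13.4% of tested genes had an interaction at adjusted p under 0.05. In knockout sex and drug cannot be told apart. Plk1 had a knockout difference of -0.88 (interaction -1.94, adjusted p = 0.00134) and Aurka one of -0.69 (interaction -1.77, adjusted p = 0.00175).

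The largest rise of a named gene was that of Akr1c12, an aldo-keto reductase of steroid and carbonyl metabolism (ENSMUSG00000021211, chromosome 13, 4268176 to 4279433, minus strand, mm10). It measured 6.35, 8.48 and 4.51 FPKM untreated and 172, 205 and 223 FPKM treated. The log2 difference was 4.78 ± 0.26 (limma adjusted p = 2.49e-06), and in knockout cells it was 4.85 (interaction adjusted p = 0.916). Akr1c13, from 4191150 to 4205596, measured 233, 191 and 164 FPKM untreated and 742, 789 and 855 FPKM treated (2.03 ± 0.23, limma adjusted p = 0.000639). Akr1c19, from 4228700 to 4252843, measured 3.78, 3.19 and 3.36 FPKM untreated and 15.2, 18.8 and 17.9 FPKM treated (2.04 ± 0.24, limma adjusted p = 0.000883).

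These 3 lie side by side in a cluster of 9 related genes on chromosome 13. Akr1e1, the only other tested member, at the end of the cluster (4590750 to 4609174), measured 89.5, 62.4 and 54.8 FPKM untreated and 81.6, 66.0 and 60.3 FPKM treated, and its groups overlapped (limma adjusted p = 0.98). The 5 others were not above 0.566 FPKM in any wild-type library and were not tested. Akr1c12 and Akr1c13 are close copies, so the authors' counting may have split reads between them. In knockout the differences were 3.09 for Akr1c13 and 3.43 for Akr1c19, both larger than in wild type (interaction adjusted p = 0.0481 and 0.0212).

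Of the 28 antioxidant genes listed with them, the only others that passed were Hmox1 and Gsta4, and both fell. Among all tested genes 1.44% were lower and 1.18% higher. Hmox1, the heme oxygenase that NRF2 and heme induce, measured 20.1, 37.9 and 26.3 FPKM untreated and 3.08, 2.59 and 2.80 FPKM treated (log2 difference -2.88 ± 0.27, limma adjusted p = 0.000121). Gsta4, a glutathione transferase named after its values were seen, had a log2 difference of -0.78 (limma adjusted p = 0.0121). Nqo1, a standard NRF2 target, had one of -0.00 ± 0.23, and the list's median was -0.05.

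Other large rises came from genes of varied roles. Stxbp6, a regulator of vesicle fusion, measured 3.54, 3.26 and 2.91 FPKM untreated and 39.4, 38.2 and 39.1 FPKM treated (3.24 ± 0.21, limma adjusted p = 8.77e-06). The 3 treated libraries were nearly level, and in knockout the difference of Stxbp6 was 3.56. Alox5, the enzyme that starts leukotriene synthesis, measured 0.612, 1.63 and 0.994 FPKM untreated and 15.9, 14 and 14.2 FPKM treated (2.95 ± 0.37, limma adjusted p = 0.00117). Unlike Stxbp6, Alox5 had a knockout difference of -0.35 (interaction adjusted p = 0.00347). Ecm1, an extracellular matrix protein, measured 25.8, 25.2 and 22.3 FPKM untreated and 190, 149 and 132 FPKM treated (2.62 ± 0.36).

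The remaining large rises were Actr3b, an actin-related protein (log2 difference 2.67), Clec10a, a lectin (2.47), Podxl, a sialomucin of the CD34 family (2.39), Bcas1 (2.37), Serpina3f, a serine protease inhibitor (2.27), Apoa1, the apolipoprotein of HDL (2.27), and Ltb, lymphotoxin beta (2.16). The naming rule takes only rises whose groups do not overlap, so the lack of overlap in these 7 was fixed by that choice. Ltb lost the call, at limma adjusted p of up to 0.126, with any wild-type library left out other than untreated replicate 2. Podxl had a knockout difference of 3.52 and Apoa1 of 3.45, while Ltb had 0.33 and Bcas1 0.51.

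Hspa1b and Hspa1a, adjacent genes for the inducible HSP70 chaperone, rose by 3.96 ± 0.75 and 3.41 ± 0.64 (limma adjusted p = 0.015 for each), with wide spread. Hspa1b measured 0.426, 11.3 and 3.36 FPKM untreated and 88.4, 89.7 and 34.5 FPKM treated. Hspa1a measured 0.0383, 2.27 and 0.336 FPKM untreated and 24.1, 27.8 and 6.48 FPKM treated. The groups did not overlap for either gene, but Romiplostim replicate 3 was the lowest treated library for both genes and the call was lost without untreated replicate 1 or Romiplostim replicate 1 or 2 (limma adjusted p up to 0.0771 for Hspa1a and 0.0732 for Hspa1b). The other 30 heat shock and unfolded protein genes did not pass, and the list's median was -0.06.

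The start of Hspa1b is shown because the pair rose nearly alone in its list. The window is chr17:34959189-34959488 (GRCm38.p6, minus strand, 5′ to 3′), with GAANNTTC, the core of a heat shock element, in capitals.
Hspa1b: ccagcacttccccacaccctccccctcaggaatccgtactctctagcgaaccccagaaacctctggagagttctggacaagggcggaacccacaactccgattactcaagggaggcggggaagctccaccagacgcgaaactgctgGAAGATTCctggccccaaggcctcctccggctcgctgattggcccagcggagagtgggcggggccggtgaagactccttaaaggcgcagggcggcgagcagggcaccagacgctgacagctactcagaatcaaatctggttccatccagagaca
The match begins 104 bases before the start. The letters, searched on both strands and chosen after the values were seen, are in 7.86% of all RefSeq windows, and in the Cish window a match overlaps the STAT5 letters. The windows of Hspa1a and Hspa1b are identical at 296 of 300 aligned positions, and reads from these near copies may have been split between them.

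Cd48 and Plac8, which are low on the most primitive stem cells and higher on multipotent progenitors, rose. Cd48, a surface protein used to separate progenitors from stem cells, measured 17.6, 12.6 and 20.8 FPKM untreated and 80.2, 78.8 and 96.7 FPKM treated (2.28 ± 0.28, limma adjusted p = 0.00103). Plac8 measured 160, 283 and 268 FPKM untreated and 859, 970 and 994 FPKM treated (2.02 ± 0.21, limma adjusted p = 0.000424). Hmgb2, a chromatin protein of dividing cells, measured 431, 386 and 486 FPKM untreated and 889, 706 and 716 FPKM treated (0.82 ± 0.17, limma adjusted p = 0.0218). All 3 had their treated libraries above their untreated ones. Hmgb2 lost the call without any 1 of 5 libraries, the exception being untreated replicate 3 (limma adjusted p up to 0.109).

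Cd48, Plac8 and Hmgb2 were the only ones of 11 multipotent progenitor markers that passed, beside 1.18% of all tested genes higher and 1.44% lower. The list's median was 0.24 (-0.06 without untreated replicate 1). The list's summed level was 1339 to 1456 FPKM untreated and 2357 to 2501 FPKM treated. Most of that rise lay in Plac8 and Hmgb2, so it does not describe the list as a whole. Flt3, the receptor of lymphoid-primed progenitors, had a log2 difference of -0.14 ± 0.34, and Cd34 one of 0.36 ± 0.30 (limma adjusted p = 0.678, and 0.0346 with the replicate block). Cd48 had a knockout difference of -0.22, against 2.28 in wild type (interaction -2.50, adjusted p = 0.00337).

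Of 30 stem cell identity genes tested, 2 fell and none rose, with a median of -0.27. Among all tested genes 1.44% were lower and 1.18% higher. With the replicate block 9 of the 30 were lower and 2 higher, beside 6.6% and 5.09% of all tested genes. Rarb, the retinoic acid receptor beta, measured 5.75, 2.74 and 3.28 FPKM untreated and 0.630, 0.603 and 0.445 FPKM treated (-1.61 ± 0.18, limma adjusted p = 0.000639). Mmrn1, a platelet and endothelial protein used as a marker of stem cells, measured 89.7, 77.7 and 67.9 FPKM untreated and 35.2, 29.5 and 29.4 FPKM treated (-1.29 ± 0.23, limma adjusted p = 0.0103, and 0.0533 without Romiplostim replicate 2).

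Procr, which encodes the stem cell marker EPCR, measured 130, 141 and 151 FPKM untreated and 81.1, 110 and 108 FPKM treated (-0.50 ± 0.25, limma adjusted p = 0.402, and 0.0203 with the replicate block). Hlf, a transcription factor of stem cells, had a log2 difference of -0.79 ± 0.28 (limma adjusted p = 0.201, with the block 0.00761). Slamf1, the marker CD150, went the other way at 0.48 ± 0.27 (limma adjusted p = 0.462, with the block 0.0215). In knockout the list's median was 0.73 and 16 of 30 genes were higher, beside 11.6% of all tested genes. An interaction above 0 passed for 12 of the 30, beside 699 of all 11938 tested genes. Among the 12 were Procr with 2.53 (limma interaction adjusted p = 0.00224) and Hlf with 1.83 (0.0126).

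Of 28 genes known to be higher in stem cells of old mice, 6 fell and none rose, and the median was -0.44. With the replicate block 15 were lower and 5 higher. Of all tested genes 1.44% were lower without the block, and 6.6% lower and 5.09% higher with it. With 1 wild-type library left out and no block, 3 to 7 of the 28 were lower, the fewest without Romiplostim replicate 3. Sult1a1, a sulfotransferase, measured 164, 110 and 104 FPKM untreated and 10.7, 7.77 and 7.13 FPKM treated (-3.73 ± 0.29, limma adjusted p = 4.51e-05). Its knockout difference was -1.21 (interaction 2.52, adjusted p = 0.00414). Fhl1, a LIM domain protein, fell by 1.57, Runx1t1, a transcriptional corepressor, by 1.21, and Wwtr1, the coactivator TAZ, by 0.92, all without overlap between the groups. Wwtr1 had a limma adjusted p of 0.0516 without Romiplostim replicate 3.

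Among 23 quiescence genes, 1 fell and none rose (median -0.35), beside 1.44% of all tested genes lower. With the replicate block 5 were lower, beside 6.6% of all tested genes. The list's median was -0.17 without untreated replicate 1. The gene that fell was Ndn, the growth suppressor necdin, with 46.9, 39.1 and 64.7 FPKM untreated and 17.9, 19.9 and 22.2 FPKM treated (-1.26 ± 0.28, limma adjusted p = 0.0311). The call for Ndn was lost without any 1 of 5 wild-type libraries, all but untreated replicate 2 (limma adjusted p up to 0.126). Cdkn1c, the cell cycle inhibitor p57, measured 31.7, 21.1 and 21.5 FPKM untreated and 16.8, 14.1 and 12.5 FPKM treated (-0.72 ± 0.28, limma adjusted p = 0.261, with the block 0.00978).

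The megakaryocyte and platelet genes, the lineage thrombopoietin is named for, gave 1 fall and no rise among 29 tested, and 10 higher and 2 lower with the replicate block. Of all tested genes 1.44% fell and 1.18% rose, and 5.09% were higher and 6.6% lower with the block. The median of the list was 0.45, with 20 of 29 above 0, and it was 0.21 without untreated replicate 1. The fall was that of Mmrn1. Pf4, a chemokine of platelet granules, was scattered at 69.9, 441 and 206 FPKM untreated and 181, 337 and 307 FPKM treated (limma adjusted p = 0.773). Itga2b, which encodes CD41, measured 93.6, 78.6 and 79.6 FPKM untreated and 130, 122 and 112 FPKM treated (0.53 ± 0.29, limma adjusted p = 0.451, with the block 0.0119).

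Vwf, the von Willebrand factor of platelet-biased stem cells, had a log2 difference of 0.45 ± 0.27 in wild type (limma adjusted p = 0.527) and of 1.89 in knockout (interaction 1.45, adjusted p = 0.0298). Selp, a platelet adhesion molecule, measured 96.3, 37.2 and 23.9 FPKM untreated and 19.7, 16.5 and 12.9 FPKM treated (-1.40 ± 0.43, limma adjusted p = 0.128, with the block 0.021). The 3 treated values of Selp lay below the untreated ones, of which replicate 1 was the highest. None of 15 megakaryocyte and erythroid transcription factors passed (median 0.08).

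**Figure D3:**
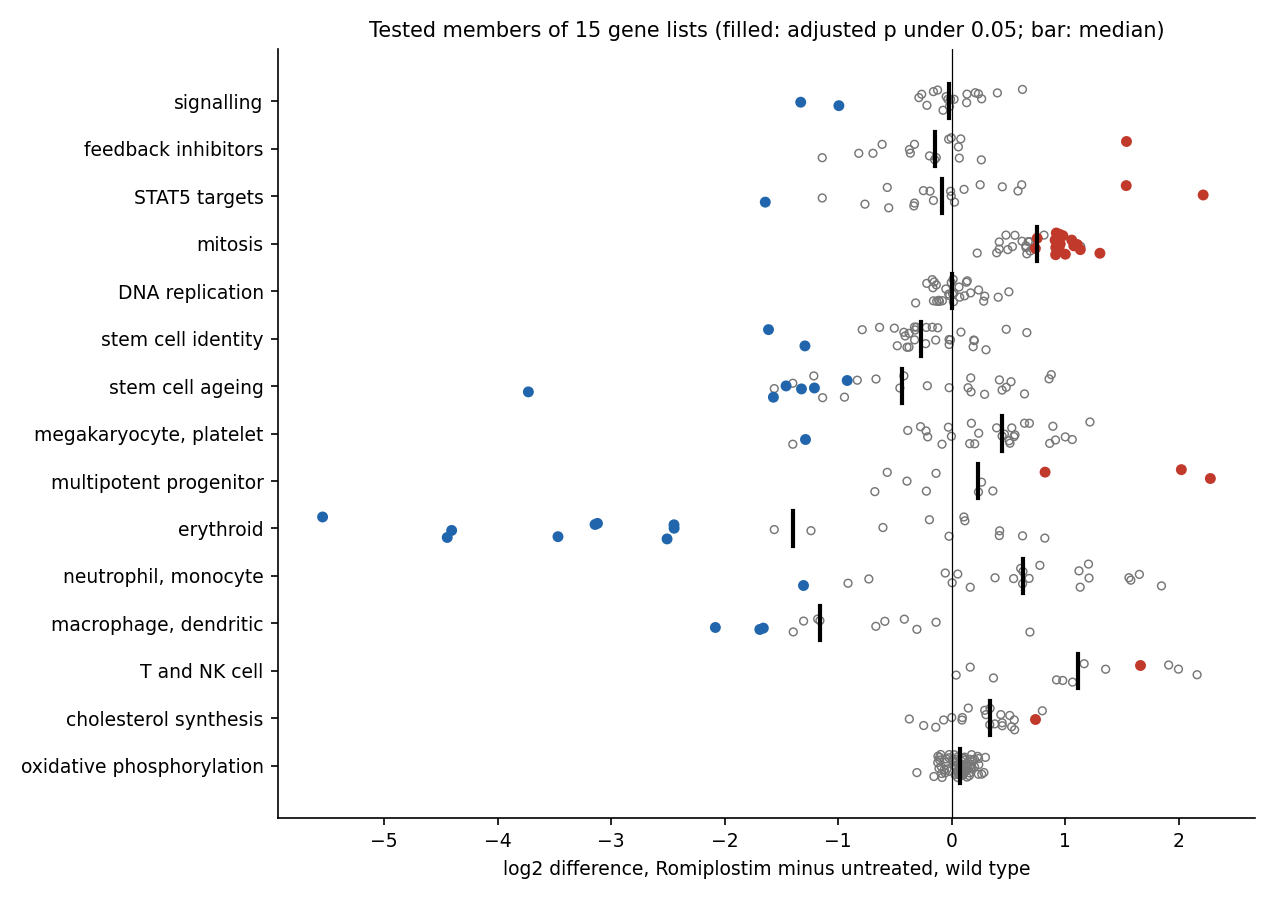
Log2 difference, Romiplostim minus untreated, of each tested member of 15 gene lists in wild-type cells, with filled points at adjusted p under 0.05 and a bar at the list's median. All 33 mitosis genes lie right of 0 (median 0.75), while erythroid markers reach -5.54 and oxidative phosphorylation genes stay within -0.31 to 0.30.

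The deepest falls were in genes of red cells. Of 20 erythroid markers tested, 9 fell and none rose, beside 1.44% of all tested genes lower and 1.18% higher. The median of the 20 was -1.40. Car1, carbonic anhydrase 1, measured 110, 160 and 156 FPKM untreated and 2.45, 0.346 and 5 FPKM treated (-5.54 ± 0.70, limma adjusted p = 0.00126). Rhd, a subunit of the Rh antigen complex, measured 10.8, 13 and 11 FPKM untreated and 0.833, 0.127 and 0.464 FPKM treated (-3.12 ± 0.46, limma adjusted p = 0.0036).

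The listed values of the globin genes split. Hbb-bs, an adult beta globin, measured 334, 572 and 310 FPKM untreated and 60.2, 28.9 and 23.1 FPKM treated (-3.47 ± 0.78, limma adjusted p = 0.0369). Its neighbour Hbb-bt measured 79.3, 260 and 117 FPKM untreated and 122, 367 and 300 FPKM treated, overlapping values (0.82 ± 0.98, limma adjusted p = 0.802), and passed upward with the block (0.0284). Hbb-bs and Hbb-bt are close copies, so reads may have been split between them, and the part of this in their opposite signs was not tested. The near-identical alpha globins Hba-a1 and Hba-a2 had log2 differences of -4.40 and -4.44, and may share reads. Both lost the call without untreated replicate 2 or Romiplostim replicate 2 or 3 (limma adjusted p up to 0.0782 for Hba-a1 and 0.0806 for Hba-a2). Cldn13, a claudin of erythroid cells, had -3.14, with 1 treated library listed at 0, Ermap, an erythroid membrane protein, -2.45, and Sphk1, a sphingosine kinase, -2.44.

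Among the listed erythroid markers that did not pass were Klf1, Car2, Tfrc and Epor, named after their values were seen. Klf1, the erythroid transcription factor, measured 14.3, 17.7 and 18.4 FPKM untreated and 14.8, 8.94 and 9.06 FPKM treated. Car2 had a log2 difference of 0.12 ± 0.23, the transferrin receptor Tfrc one of 0.42 ± 0.34 and the erythropoietin receptor Epor one of 0.63 ± 0.26 (with the block, adjusted p = 0.0226 upward). The summed level of the list was 2442 to 3716 FPKM untreated and 1879 to 2144 FPKM treated. With the replicate block 11 markers were lower and 2 higher, beside 6.6% and 5.09% of all tested genes. Without the block, the count of 9 was 6, 4 and 6 without untreated replicates 1, 2 and 3 and 6, 4 and 4 without Romiplostim replicates 1, 2 and 3. Hbb-bs, Ermap and Sphk1 lost the call without any 1 of the 6 libraries, at adjusted p of up to 0.143. Car1 had a knockout difference of -0.58 (interaction 4.96, adjusted p = 0.00914).

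Markers of other cell types moved as well, and their part in the results above was not tested. As a background for the lists that follow, 1.44% of all tested genes were lower and 1.18% higher. With the replicate block these shares were 6.6% and 5.09%. Of 13 macrophage and dendritic cell markers, 3 fell and none rose, and 9 were lower with the replicate block. In the 6 wild-type libraries without the block 8 were lower, beside 335 of all 11938 tested genes. The list's median was -1.16 and its summed level was 990.5 to 1085 FPKM untreated and 648.5 to 740.3 FPKM treated. Fcna, a ficolin of macrophages, measured 5.35, 5.94 and 7 FPKM untreated and 0.852, 0.982 and 0.266 FPKM treated (-2.08 ± 0.37, limma adjusted p = 0.0119, and 0.0582 without Romiplostim replicate 3). C1qb and C1qc, subunits of complement C1q, fell by 1.69 and 1.66, and both lost the call without any 1 of the 6 libraries (limma adjusted p up to 0.116 and 0.167). In knockout Fcna had a difference of -4.47.

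All 12 T and NK cell markers tested had positive differences, 1 was higher and 10 were higher with the replicate block. In the 6 wild-type libraries without the block 8 were higher, beside 276 of all 11938 tested genes. The list's median was 1.12 and its summed level was 215 to 256 FPKM untreated and 404 to 427 FPKM treated. Trbc1, a constant segment of the T cell receptor beta chain, measured 0.277, 0.934 and 0.403 FPKM untreated and 3.22, 5.22 and 3.14 FPKM treated (1.66 ± 0.40, limma adjusted p = 0.0499). It lost the call without any 1 of the 6 libraries (limma adjusted p up to 0.207). Nkg7, a granule protein of cytotoxic cells and the most abundant of the list, measured 154, 122 and 167 FPKM untreated and 256, 288 and 295 FPKM treated (0.92 ± 0.23, limma adjusted p = 0.0519).

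Of 22 neutrophil and monocyte markers, 1 fell and none rose, and with the block 9 were higher and 3 lower (median 0.63). Csf3r, the G-CSF receptor, measured 51.9, 25.7 and 53.3 FPKM untreated and 14.4, 16.3 and 17.8 FPKM treated (-1.31 ± 0.29, limma adjusted p = 0.0322), and was lost without any 1 of 5 libraries, all but untreated replicate 2 (adjusted p up to 0.128). Mpo, the peroxidase of myeloid granules, overlapped at 118, 30.9 and 109 FPKM untreated and 75.5, 174 and 128 FPKM treated (0.68 ± 0.49, limma adjusted p = 0.613). The summed level of this list was 2147 to 4719 FPKM untreated and 2387 to 7714 FPKM treated.

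None of 11 B cell markers passed (with the block 2 higher and 3 lower, median -0.24), none of 12 mast cell, basophil and eosinophil markers (4 and 1, median -0.24) and none of 10 stroma and endothelium markers (2 and 4, median -0.48). Of 11 lymphoid-primed progenitor genes, Cd48 alone passed (4 and 0, median 0.13). The medians of the mast cell list and of the lymphoid-primed list changed sign with 1 library left out, to 0.14 without untreated replicate 2 and to -0.01 without Romiplostim replicate 2. None of the 4 tested sex-linked genes passed (median 0.03).

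**Figure D4:**
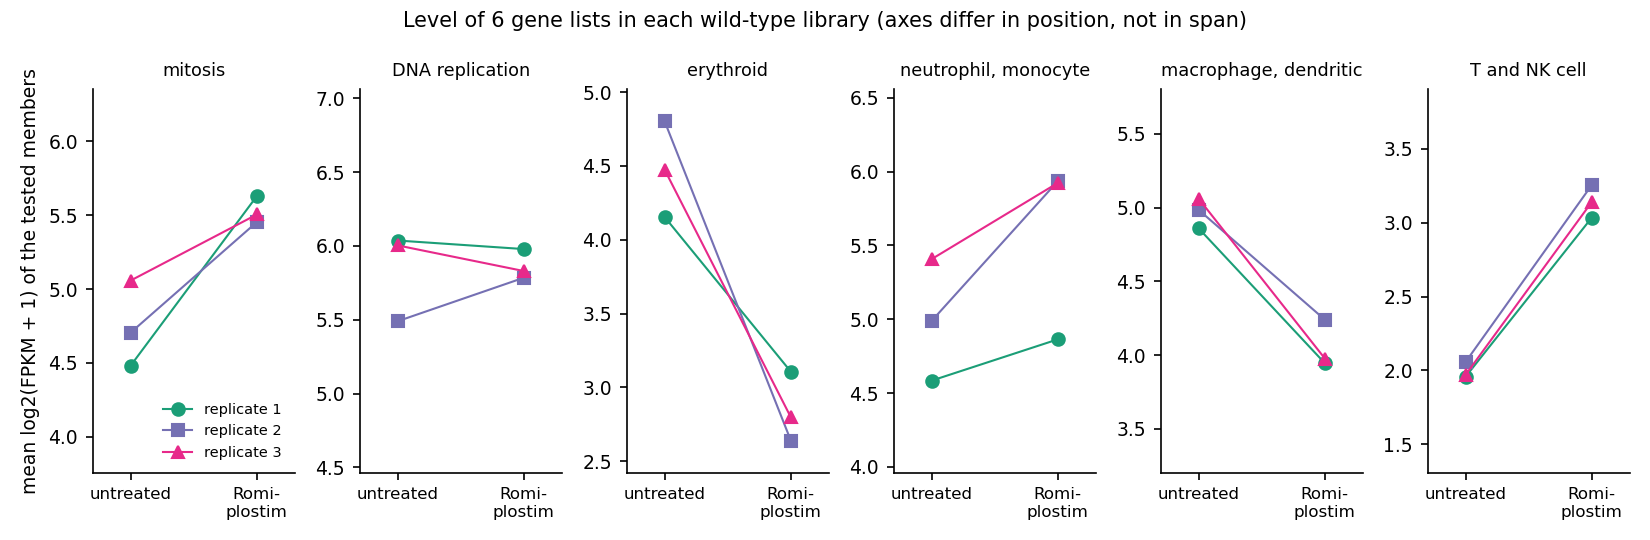
Mean log2(FPKM + 1) of the tested members of 6 gene lists in each wild-type library, with a line joining libraries of the same replicate number. Mitosis genes rise from 4.48, 4.70 and 5.06 to 5.63, 5.45 and 5.51 (replicates 1, 2 and 3), and replicate 1 is the lowest of both groups for neutrophil and monocyte markers.

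No member passed in 11 lists of basic cell functions. None of 75 oxidative phosphorylation genes passed, with or without the block, and their median was 0.07. In knockout 50 of the 75 were higher (median 0.60), beside 11.6% of all tested genes. None of 82 cytosolic ribosomal protein genes passed (median 0.22, and -0.08 without untreated replicate 1). In knockout 71 of them were higher (median 1.04), beside the same 11.6%. None of the 76 mitochondrial ribosomal protein genes passed (median 0.06), nor of the 12 mitochondrially encoded genes (0.03, and -0.34 to 0.32 with 1 wild-type library left out), 30 ribosome biogenesis genes (-0.04), 30 autophagy and lysosome genes (-0.06), 29 DNA repair genes (0.01), 24 DNA methylation and Polycomb genes (-0.02), 22 fatty acid oxidation genes (-0.00), 21 p53 and apoptosis genes (0.06) or 21 heme and iron genes (-0.15). At an unadjusted limma p under 0.05, none to 3 members of each of these 11 lists passed, beside 14.2% of all tested genes. With the block, at most 2 of any of these lists were higher and at most 3 lower.

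A few metabolic and stress lists had single members past the test. Fdps, farnesyl diphosphate synthase, was the only one of 22 cholesterol synthesis genes to rise, with 84.0, 65.7 and 93.6 FPKM untreated and 138, 136 and 128 FPKM treated (0.73 ± 0.17, limma adjusted p = 0.0379), and with the block 10 of the 22 were higher and none lower (median 0.34). Without any 1 of 5 libraries, all but untreated replicate 3, Fdps did not pass (adjusted p up to 0.144). Among 34 glycolysis and hypoxia genes Vegfa, the endothelial growth factor, rose by 0.89 and Hk2, a hexokinase, fell by 0.74 (median -0.02, with the block 2 higher and 3 lower). Vegfa lost the call without any 1 of 5 libraries, all but Romiplostim replicate 1 (adjusted p up to 0.126), and Hk2 without any 1 of the 6 (up to 0.216).

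Nfkb2, which encodes the p100 precursor of the alternative NF-kB route, was the only one of 27 immediate early and NF-kB genes to pass. It measured 4.21, 4.74 and 4.71 FPKM untreated and 9.83, 13.7 and 11.5 FPKM treated (1.18 ± 0.22, limma adjusted p = 0.013), and did not pass without untreated replicate 1 or Romiplostim replicate 2 or 3 (up to 0.0745). The list's median was -0.20, and with the block 5 were higher and 2 lower. That median ran from -0.63 without untreated replicate 3 to 0.17 without untreated replicate 1, so its sign rests on single libraries. Gbp7, a guanylate binding protein, was the only one of 37 interferon response genes to pass and was lower by a log2 difference of -0.47 (limma adjusted p = 0.0476, up to 0.193 with 1 wild-type library left out), with a list median of -0.13 and 6 lower and 1 higher with the block. Of 20 other cytokine receptors, Il18r1 rose, from 1.25, 1.07 and 0.752 FPKM to 5.25, 5.17 and 5.48 FPKM (1.64 ± 0.19, limma adjusted p = 0.000639), and Csf3r fell (median 0.04, with the block 4 higher and 2 lower).

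Further falls by the rule were in genes outside the lists. Meis3, a homeobox cofactor, measured 6.81, 5.25 and 6.35 FPKM untreated and 0.731, 0.664 and 0.581 FPKM treated (-2.10 ± 0.19, limma adjusted p = 9.67e-05), and in knockout its difference was -1.73. Airn, the noncoding RNA that overlaps Igf2r on the opposite strand, measured 4.79, 6.83 and 7.82 FPKM untreated and 0.539, 0.752 and 0.607 FPKM treated (-2.18 ± 0.19, limma adjusted p = 9.67e-05). The library kit does not mark strand, so Airn reads cannot be told apart from unspliced Igf2r reads. Slc38a5, a glutamine transporter, had a log2 difference of -2.33 and lost the call without any 1 of the 6 libraries (adjusted p up to 0.093).

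The drug's effect on knockout cells rests on 6 separate libraries, so no library is shared by both contrasts. Of the 141 genes higher in wild type, 76 had the same sign in knockout (53.9%), beside 44.8% of all tested genes with a positive wild-type difference, and 42 were also called higher there (29.8%). Of the 172 lower, 102 had the same sign (59.3%, beside 56.1%) and 40 were also called lower (23.3%). The median knockout difference was 0.06 for the 141 genes, against 1.06 in wild type, and -0.10 for the 172, against -1.06. Genes called in the opposite direction in knockout numbered 28 and 21. Pearson's r between the 2 contrasts over the 11938 tested genes was 0.108, where genes are not independent replicates. The interaction passed for 80 of the 141 and 98 of the 172, which is a description, since these genes were chosen by the wild-type difference that the interaction contains. In the treated knockout group all 3 libraries had Y-linked genes near 0 while the 3 untreated ones expressed them, so that sex and drug cannot be told apart in knockout. With the Y-linked level as a covariate the interaction count went from 1602 to 325 and the wild-type count from 313 to 245. In knockout that level was 3.02 to 3.99 untreated and 0.00766 to 0.0543 treated (mean log2), so the covariate nearly coincides with treatment. The interaction count would therefore fall whether or not sex matters, and this fit cannot tell sex from drug. Mean log2(FPKM + 1) of B cell markers was 7.8, 8.8 and 8.5 in untreated knockout and 3.2, 2.9 and 2.9 in untreated wild type. Macrophage and dendritic cell markers were at 7.9, 8.3 and 8.0 beside 4.9, 5.0 and 5.1. The 2 contrasts thus start from unlike levels, and the part of this in the interaction was not tested.

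**Figure D5:**
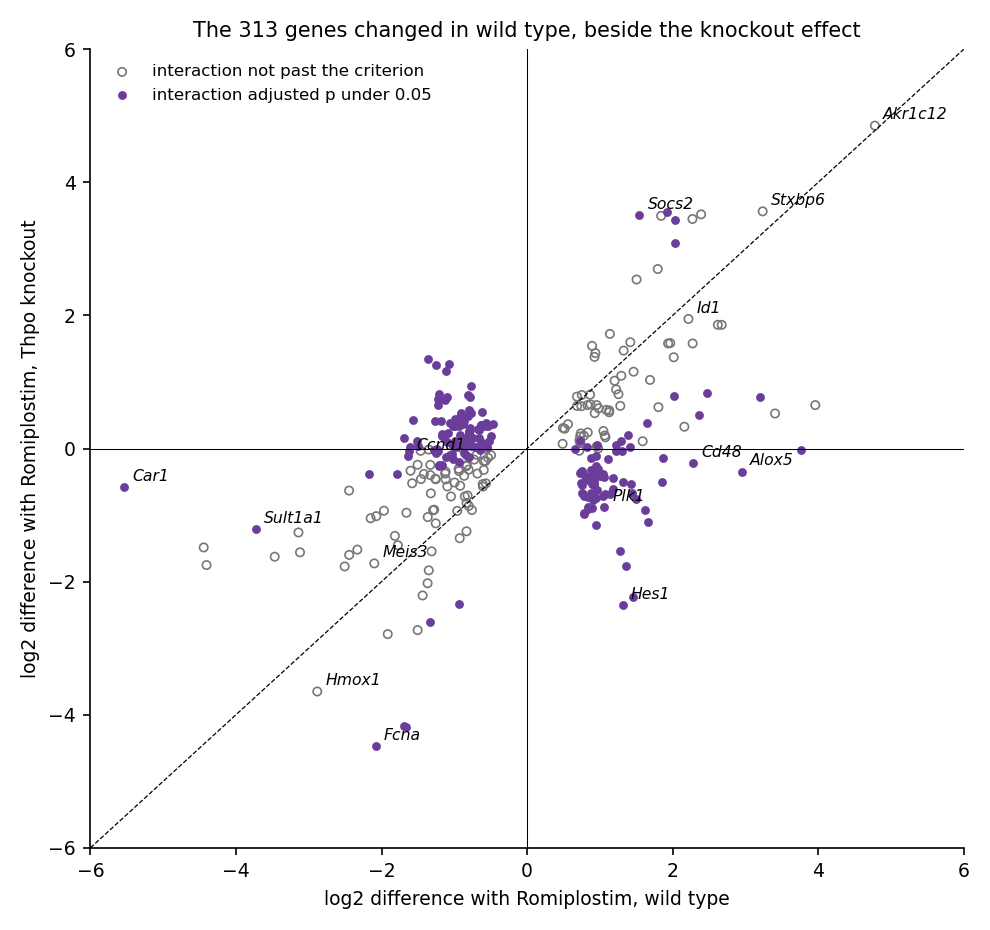
Log2 difference with Romiplostim in wild-type cells (x axis) and in Thpo-/- cells (y axis) of the 313 genes changed in wild type, with filled points where the interaction passed adjusted p under 0.05 and a dashed line of equal effects. Akr1c12 and Stxbp6 lie near the line, Socs2 above it, and Alox5, Cd48 and Plk1 at or below 0 in knockout.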

How the data were processed

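The measured material was RNA of sorted stem cells, amplified from low input by a kit that does not mark strand. The authors deposited 1 table of FPKM values, genes by 12 libraries, made with TopHat2 and Cufflinks 2.2.1 on mm10 per the submitters' processing notes; how multi-mapping fragments were shared is not given in the sources used here. Of 35275 Ensembl identifiers, 34490 were given a symbol from GENCODE. Depth was estimated from the spacing of low values, of which 52.6% to 55.4% in the wild-type libraries were whole fragments within 0.05, so no count test was run. Genes with at least 1 FPKM in at least 3 of the 6 wild-type libraries were tested on log2(FPKM + 1) with limma 3.58.1 (R 4.3.3). The fit had 4 group means over all 12 libraries and an intensity trend, two-sided, with Benjamini-Hochberg adjustment over all 11938 genes at 0.05. Contrasts were treated minus untreated in wild type, the same in knockout, and their difference. The pipeline was tested on simulated data. FPKM is a share of each library, so a rise of abundant genes lowers the others, and 3 libraries a side limit precision (the smallest exact permutation p for 3 against 3 is 0.1).

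Same-numbered wild-type libraries had correlated deviations from their group means (r = 0.518, 0.21 and 0.467), so the numbers were taken to pair them, although the labels state no pairing. For wild-type libraries of unlike number r ran from -0.445 to 0.166, the latter close to the 0.21 of replicate 2. The pairing was thus read from the same values that the block then fits, and results with the block are a description. Replicates 1 and 2 also pair libraries of unlike Y-linked level. In knockout r was 0.0873, 0.0135 and 0.0968. The fit with the replicate block in the 6 wild-type libraries is printed beside results it changes. Symbols were named by a rule: the 15 largest rises and 15 largest falls with a group mean of at least 5 FPKM and no overlap, up to 4 members of each list, all signalling and feedback genes, and 13 fixed markers, leaving out unnamed gene models, small RNAs, pseudogenes and antigen receptor segments among the rises and falls. Some genes the rule takes are not reported here. Other genes are named for context after their values were seen, among them Bcl2, Kif2c, Gsta4, Nqo1, Nkg7, Flt3, Cd34, Klf1, Car2, Hbb-bt, Tfrc, Epor, Ly6a and Esam. Lists are described by counts and medians, with no set test. The comparison, the lists and the rule were chosen with earlier results of these data known. Promoter windows came from RefSeq, GRCm38.p6; those of Socs2, Id1 and Ccnd1 were not analysed here. Alternatives varied the pseudocount, filter, scaling, variance model, libraries, sex covariate and block.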

Additional observations from a re-analysis of the deposited data

Results flagged for a closer look

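The wild-type drug effect was subtracted from the knockout one and tested as an interaction in the same limma fit, and 1602 of 11938 genes passed. All values below are that difference on the log2 scale, for genes named by the rule or by the signalling lists. Each passed at adjusted p under 0.05. Many of these genes were chosen by their wild-type effect, which the difference contains with its sign reversed. That choice pushes the difference away from 0, so for them a pass is a description. In knockout all 3 treated libraries also differ from the untreated ones in Y-linked levels, whose part was not tested gene by gene. Groups of 3 were too small to look for single outlying libraries.

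The sign gives no order of size, since an effect can be a rise or a fall. The difference was negative, so that the knockout effect lay below the wild-type one, for cell markers and signalling genes: Mpo (-3.40), Alox5 (-3.29), Trbc1 (-2.76), C1qc (-2.52), Cd48 (-2.50), C1qb (-2.48), Fcna (-2.39), Clec10a (-1.63), Itga2b (-1.43), Il18r1 (-1.27) and Plac8 (-1.23). The kinase Lyn was at -1.35, the adaptor Grb2 at -0.76, Nfkb2 at -1.79, Vegfa at -1.42 and Bcas1 at -1.86. The dividing-cell genes were Plk1 (-1.94), Aurka (-1.77), Cenpa (-1.34), Ccnb2 (-1.26) and Hmgb2 (-0.80).

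It was positive, so that the knockout effect lay above the wild-type one, for Car1 (4.96), Procr (2.53), Sult1a1 (2.52), Cish (2.39), Fhl1 (2.0), Socs2 (1.97), Hlf (1.83), Airn (1.79), Ndn (1.67), Rarb (1.63), Ccnd1 (1.52), Cdkn1c (1.48), Vwf (1.45) and Akr1c19 (1.39). At smaller size these were Pik3r1 (1.11), Akr1c13 (1.06), Runx1t1 (0.96), Hk2 (0.90) and Gbp7 (0.84).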

How the results depend on the processing

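Of the 313 genes changed in wild type (141 higher, 172 lower), the count moved beyond 1.5 times as follows. It was 141 with a filter at 5 FPKM (87 higher, 54 lower, so 61.7% higher against 45% as reported), 488 with quantile normalization (272 higher, 55.7%), and 168 with a fold criterion of log2 1 (76 and 92). It was 611 with only the 6 wild-type libraries (276 and 335), 2498 with library weights (903 and 1595), and 1396 with the replicate block in those 6 (608 and 788). The block over all 12 libraries gave 303. Leaving out 1 library in turn, of wild type or, added after the data were seen, of knockout, gave 116 to 541 genes (52 to 241 higher, 60 to 300 lower). The knockout count of 3308 was 626 with the Y-linked covariate and 1791 to 3852 with 1 library left out. The interaction count of 1602 was 325 with the covariate and 819 to 2291 with 1 left out. The covariate nearly coincides with treatment in knockout, so the knockout and interaction counts would fall with it whether or not sex matters. Mitosis genes higher (16) numbered 10 without a filter on low values, 6 with the fold criterion, and 4 to 18 with 1 library left out. They numbered 26 with the replicate block in the 6 wild-type libraries and 11 with it over all 12. Erythroid markers lower (9) numbered 4 without the filter and 4 to 11 with 1 left out. Of 58 genes that the naming rule takes and that passed the criterion, 32 kept it without each wild-type library, 26 lost it without at least 1 and none changed sign under any alternative run. The cause of these shifts was not tested. Depth limits genes below 1 FPKM, which were left out.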

Other observations

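Some genes outside the naming rule had large differences and were picked after their values were seen. Tcrg-C1, a constant segment of the T cell receptor gamma chain, measured 0.219, 0 and 0.199 FPKM in untreated wild-type cells and 21.4, 12.3 and 11.4 FPKM after Romiplostim (log2 difference 3.77 ± 0.42, limma adjusted p = 0.000639). It was thus well above Trbc1 of the beta chain, at 3.14 to 5.22 FPKM treated, and in knockout its difference was -0.03 (interaction -3.79, adjusted p = 0.00347). Hes1, a repressor induced by Notch, measured 9.97, 6.31 and 7.06 FPKM untreated and 21.2, 20.5 and 19.8 FPKM treated (1.31 ± 0.30, limma adjusted p = 0.0379). In knockout Hes1 moved the other way, by -2.35 (interaction -3.67, adjusted p = 0.00092).

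Genes of neutrophil granules differed by replicate number in both wild-type groups. Camp, the cathelicidin, measured 31.7, 155 and 207 FPKM in untreated replicates 1, 2 and 3 and 115, 500 and 568 FPKM in the treated ones. Ltf, lactoferrin, measured 3.90, 19.2 and 20.4 FPKM untreated and 21.8, 62.6 and 67.4 FPKM treated. S100a8, a calcium-binding protein of neutrophils, measured 185, 894 and 1285 FPKM untreated and 417, 2140 and 2474 FPKM treated. Replicate 1 was the lowest of its group for all 3 genes, and the treated library exceeded the untreated library of the same number in each pair. None passed without a block (limma adjusted p = 0.38 for Camp, 0.279 for Ltf and 0.64 for S100a8), and all 3 passed with the replicate block (0.000802, 0.00114 and 0.00251). These 3 genes were picked after their values were seen, and the block removes just such a spread by replicate number. Their block values are therefore a description and no independent test.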
